A study of Mus musculus with 2 samples.

Results

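The 10 genes described here encode proteins that bind short control elements in the 3' untranslated regions (3' UTRs) of mRNAs: Zfp36, Zfp36l1, Zfp36l2, Hnrnpd, Khsrp, Elavl1, Ybx1, Zc3h12a, Rc3h1 and Rc3h2. They were taken by name from a table of 54532 genes, and all 10 were present. The table comes from an RNA sequencing study of 4T1 cells, which derive from a mammary tumour of a BALB/c mouse, with 1 wild-type sample and 1 sample in which Cd28 had been knocked out. Poly(A) RNA was sequenced, and the labels name no treatment and do not say whether the knockout cells were a clone or a pool. The series' title concerns CD28 inside cancer cells and PD-L1, the product of Cd274, through which tumour cells restrain T cells by way of PD-1.

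Only the count column headed with the knockout sample's title was used. The name of the other count column appears in no label, so the wild-type sample was not used here and no difference between genotypes was measured. All values are therefore levels in 1 library without a replicate, and their intervals cover counting error only. The library held 15565990 counted reads. Cd28, the targeted gene, had 8 of them, and a count per gene cannot tell edited from unedited transcripts. The epithelial markers Krt8, Krt18, Cdh1 and Epcam were all detected, at 645 to 16451 reads, as were Vim and Fn1. Of 18 markers of T, B, myeloid, fibroblast and endothelial cells, Trac (46 reads) and Col1a1 (59) were detected, while Ptprc, Cd3e, Pecam1 and Dcn had 0 reads.

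AU-rich elements (AREs) are stretches of a 3' UTR built from the pentamer AUUUA, and they shorten the life of many cytokine, growth factor and early-response mRNAs. ZFP36 (tristetraprolin), ZFP36L1 and ZFP36L2 bind them through a pair of CCCH zinc fingers and recruit the CCR4-NOT deadenylase, KHSRP and HNRNPD (AUF1) also promote decay of many ARE mRNAs, and ELAVL1 (HuR) competes for such sites and stabilises its targets. The roquins, encoded by Rc3h1 and Rc3h2, and the ribonuclease regnase-1, encoded by Zc3h12a, instead read small stem-loops. YBX1 is a cold-shock-domain protein that packages and stabilises many mRNAs. ZFP36 has been reported to act on the AREs of PD-L1 mRNA in tumour cells.

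The elements are shown first, because several of the 10 mRNAs carry in their own 3' UTRs the sequences that these proteins read. The 3' UTR was that of 1 protein-coding transcript per gene in GENCODE vM21 (GRCm38), the one with the longest coding part, and was searched on the transcript strand only. The pentamer searched was ATTTA, and the nonamer TTATTTATT, a longer ARE core that contains the pentamer. Each line gives the 30 bases centred on the densest group of pentamers in that 3' UTR, 5' to 3' in DNA letters, with the pentamers in capitals. Cd274 is included as the PD-L1 mRNA.
Zfp36, chr7:28376958-28376987, minus strand: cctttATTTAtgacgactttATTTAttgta
Zfp36l1, chr12:80108431-80108460, minus strand: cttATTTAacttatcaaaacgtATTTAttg
Zfp36l2, chr17:84184918-84184947, minus strand: gaaaaactATTTAacttATTTAttatcttg
Elavl1, chr8:4285777-4285806, minus strand: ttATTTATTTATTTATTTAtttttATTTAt
Rc3h2, chr2:37373419-37373448, minus strand: agatcttacacATTTATTTAatactcaagt
Cd274, chr19:29387194-29387223, plus strand: tttttATTTAatgtatggatATTTAtgctg
The Elavl1 stretch holds 5 pentamers, 4 of them overlapping in 1 run, and each of the other 5 stretches holds 2.

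The pentamer was present in the 3' UTRs of 9 of the 10 genes, against 66.4% of the 11217 detected protein-coding genes with a 3' UTR of at least 30 bases. The nonamer was present in 6 of the 10, against 7.35% of the same genes. Long 3' UTRs hold more of either motif, so each gene was also set beside detected genes whose 3' UTR length was within 20% of its own. At the shares of such genes, 8.38 of the 10 would hold the pentamer and 1.19 the nonamer, so the count of 9 for the pentamer is near that of genes of like length. For Elavl1, with 17 pentamers and 8 nonamers in 4218 bases, 2.61% of 767 such genes had as many pentamers and 17.1% held a nonamer. For Rc3h2, with 25 pentamers in 5160 bases, 0.414% of 483 genes had as many. For Zfp36l1, with 9 in 1835 bases, the share was 3.96% of 1540 genes. These 3 mRNAs were thus among the richest in pentamers for their length.

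The remaining genes were closer to genes of like length. Zfp36 had 3 pentamers and 1 nonamer in 774 bases, and 17.2% of genes of like length had as many pentamers. Zfp36l2 had 5 and 1 in 1822 bases, with 26.9% having as many. Rc3h1 had 20 pentamers and 1 nonamer in 7181 bases (18.7% had as many), Zc3h12a had 3 pentamers in 856 bases (19.8%), and Hnrnpd had 10 in 5429 bases (47.6%). Khsrp had 1 pentamer in 1642 bases, and Ybx1, with a 3' UTR of 418 bases, had 0. Cd274 held 11 pentamers and 1 nonamer in 2683 bases, and 6.63% of genes of like length had as many pentamers. A match shows the letters only, not that a protein was bound there.

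**Figure D1:**
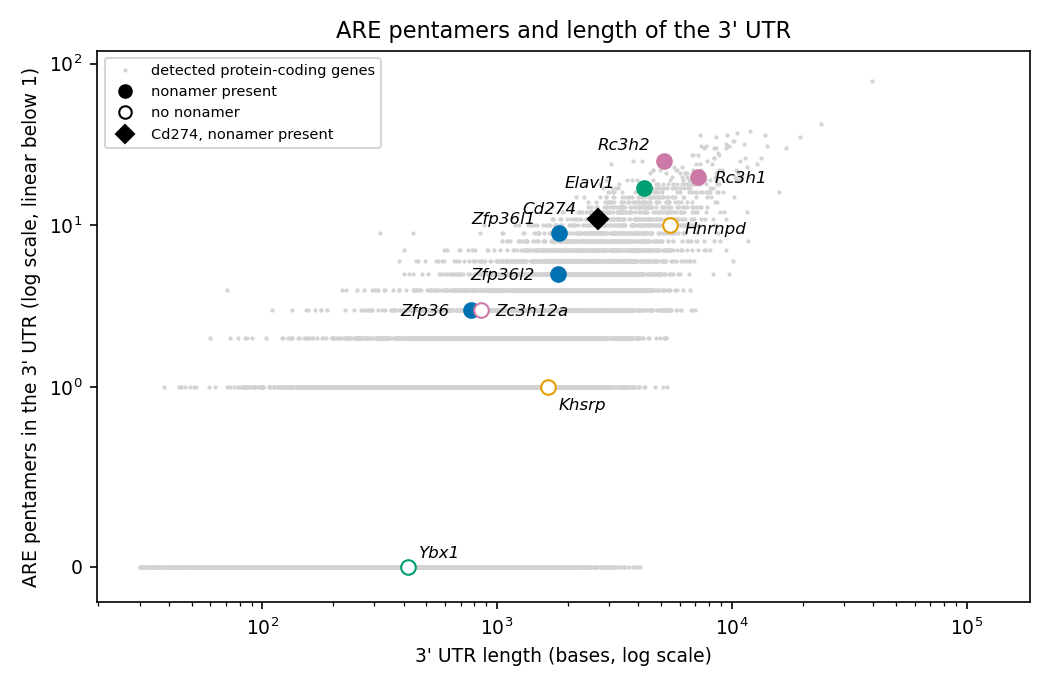
ARE pentamers in the 3' UTR (vertical axis, log scale, linear below 1) against 3' UTR length in bases (horizontal axis, log scale), for 11217 detected protein-coding genes (grey), the 10 genes (circles, coloured as in the plot of levels) and Cd274 (diamond); filled symbols hold the nonamer. Rc3h2 with 25 pentamers and Elavl1 with 17 lie near the upper edge of the cloud for their length, and Ybx1 lies at 0.

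The stem-loop read by the roquins has a core of TTCNNNGAA in which the 3 loop bases are a pyrimidine, a purine and a pyrimidine. The core stood in the 3' UTRs of 3 of the 10 genes, against 5.63% of detected genes: once in Elavl1, at 2 places in Rc3h1 and once in Rc3h2. At the shares of genes of like 3' UTR length, 1.06 of the 10 would hold it. The matches of the roquin genes are shown with the stem extended outwards as far as bases paired (G-T pairs allowed). Beside them stand that of Tnf, the mRNA in which this element is best known, and 1 of the 2 of Nfkbid, another reported roquin target. Tnf had 2 reads in this library, under the minimum of 10 for a detected gene, and Nfkbid had 71. Capitals mark the core.
Rc3h1, chr1:160968038-160968054, plus strand: tttgTTCTGTGAAtgaa
Rc3h1, chr1:160971659-160971675, plus strand: taacTTCTGTGAAgttg
Rc3h2, chr2:37373808-37373824, minus strand: taacTTCTGTGAAgttg
Tnf, chr17:35199584-35199600, minus strand: tgttTTCTGTGAAaacg
Nfkbid, chr7:30428401-30428417, plus strand: tgatTTCTGTGAAatcg
All 5 could form a stem of 7 pairs, but they were picked for display. Not shown are the other core of Nfkbid (6 pairs) and those of the detected targets Nfkbiz (7), Fos (6), Ier3 (5) and Plaur (3). A core with a stem of at least 7 pairs was present in 37 of 11217 detected genes, or 0.33%. That minimum is the value of the matches shown, Rc3h1 and Rc3h2 are among the 37, and the share is not matched for 3' UTR length. One of the Rc3h1 stretches and the Rc3h2 stretch were identical over 17 bases. Those 17 bases were taken from these 2 genes, and no other of the 11217 genes held them in its 3' UTR. For a 3' UTR as long as that of Rc3h1, 27.5% of 182 genes held the core, for Rc3h2 17.4% of 483 and for Elavl1 13.8% of 767. These shares are for the core alone, whatever its stem. The core of Elavl1 had no further pairs beyond its 3.

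All 10 genes were detected, at the minimum of 10 reads used here, against 52.2% of the 22046 protein-coding genes in the table. Together they took 29215 reads. For comparisons between genes, reads per base of deposited length were scaled to a total of 1000000 over all genes (TPM), and a gene's percentile is its TPM rank among the 11497 detected protein-coding genes. By TPM 7 of the 10 lay above the median of detected genes, 24.4, against 50% of those genes by definition. Their median TPM was 36.5, at percentile 63.2. They spread widely around it, from 10.7 for Zfp36 to 589 for Ybx1.

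The ZFP36 family was dominated by Zfp36l2. Zfp36l2 (ENSMUSG00000045817, chromosome 17, 84183931 to 84187947, minus strand) had 8370 reads, or 538 reads per 1000000 (CPM; exact Poisson 95% interval 526 to 549). Its level was 452 TPM, at percentile 98.2. Zfp36l1 (ENSMUSG00000021127, chromosome 12, 80107754 to 80113013, minus strand) had 663 reads, 42.6 CPM (39.4 to 45.96) and 42.3 TPM, at percentile 67.7. Zfp36 itself (ENSMUSG00000044786, chromosome 7, 28376784 to 28380253, minus strand), the founding member and an early-response gene in many cells, was the lowest of the 10, with 194 reads, 12.5 CPM (10.8 to 14.3) and 10.7 TPM, at percentile 27.7.

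Of the 9227 reads on these 3 paralogs, 90.7% (exact Clopper-Pearson 95% interval 90.1% to 91.3%) fell on Zfp36l2, 7.19% (6.67% to 7.73%) on Zfp36l1 and 2.1% (1.82% to 2.42%) on Zfp36. By TPM Zfp36l2 was 42.4 times Zfp36 (36.8 to 49.2) and 10.7 times Zfp36l1 (9.88 to 11.6). Per transcript length it was 34.1 times Zfp36, below that counting interval, and still 10.7 times Zfp36l1. The fourth mouse paralog, Zfp36l3, had 1 read. Their coding sequences were 66.2% to 76.3% identical over aligned bases, and 98.4% of the 50-base stretches of the Zfp36l2 transcript, and 97.5% of those of Zfp36, occurred in no other annotated gene, so reads of these 2 could largely be told apart.

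The count of Zfp36l1 is less certain. Exons of the long noncoding RNA gene Gm26669, on the opposite strand, cover 55.9% of its exon length (1672 of 2990 bases). The strand setting of the counting is not given in the sources used here, and featureCounts run without strand leaves out, by default, reads that overlap exons of 2 genes. Gm26669 had 2 reads. With every gene taken by its uncovered exon length, and all 663 reads placed on the 1318 uncovered bases, Zfp36l1 stood at 3.81 times the median of detected genes, at percentile 87.1, in place of 1.73 times. This length lowers the length-corrected share of Zfp36l2 in the family from 89.5% to 81.3%. Zfp36l2 remained the highest of the family on either length. It stood at 18.5 times the median on both, so its gap to Zfp36l1 was narrower on uncovered length. Overlap with exons of other genes was 5.24% or less for the other 9 genes.

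**Figure D2:**
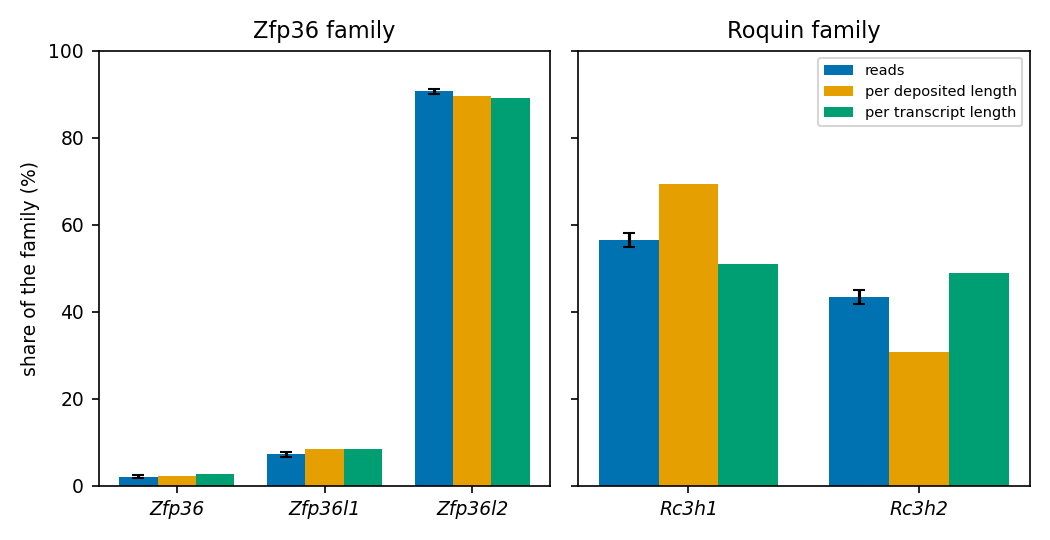
Share of each family (vertical axis, %) held by the 3 ZFP36 paralogs (left) and the 2 roquin genes (right), by reads (with exact Clopper-Pearson 95% intervals), per deposited gene length and per transcript length. Zfp36l2 holds 89.1% to 90.7% on these measures, whereas the share of Rc3h1 runs from 51.01% to 69.3%.

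The other decay-promoting ARE binders differed from each other. Khsrp (ENSMUSG00000007670, chromosome 17, 57021051 to 57031522, minus strand), which encodes a protein with KH domains that recruits decay enzymes and also takes part in microRNA maturation, had 5089 reads, 327 CPM (318 to 336) and 225 TPM, at percentile 96.02. Hnrnpd (ENSMUSG00000000568, chromosome 5, 99955935 to 99978938, minus strand) had 1454 reads, 93.4 CPM (88.7 to 98.3) and 37.7 TPM, at percentile 64.3. By TPM Khsrp was 5.96 times Hnrnpd (5.62 to 6.32). AUF1 is made as several isoforms by alternative splicing, and a count per gene does not separate them.

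Among the stabilising proteins, Ybx1 was the highest of the 10 and Elavl1 was near the median of detected genes. Ybx1 (ENSMUSG00000028639, chromosome 4, 119277981 to 119294604, minus strand) had 7825 reads, 503 CPM (492 to 514) and 589 TPM, at percentile 98.7. Elavl1 (ENSMUSG00000040028, chromosome 8, 4285382 to 4325413, minus strand) had 1682 reads, 108 CPM (103 to 113) and 30.9 TPM, at percentile 58.0. The gap between them was 19 times by TPM (18.1 to 20.1) and 16.4 times per transcript length. Ybx1 shares sequence with processed pseudogenes: 74.9% of its 50-base stretches, and 93.5% of its 100-base stretches, occurred in no other annotated gene. The 6 pseudogenes that share stretches with it held 85 reads in all, 1.09% of its own count.

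The genes for stem-loop binding proteins stood at places 6, 8 and 9 of the 10 by TPM. Rc3h1 (ENSMUSG00000040423, chromosome 1, 160906418 to 160974978, plus strand) had 2097 reads, 135 CPM (129 to 141) and 35.4 TPM, at percentile 62.1. Rc3h2 (ENSMUSG00000075376, chromosome 2, 37370069 to 37422903, minus strand) had 1610 reads, 103 CPM (98.4 to 109) and 15.6 TPM, at percentile 36.8. Zc3h12a (ENSMUSG00000042677, chromosome 4, 125118423 to 125127840, minus strand) had 231 reads, 14.8 CPM (13 to 16.9) and 15.3 TPM, at percentile 36.1. By deposited length these 3 together held 4.56% of the summed TPM of the 10 genes. The 5 decay-promoting ARE binders held 52.8%, and Ybx1 and Elavl1 42.7%. Per transcript length the order of these larger shares was reversed. As multiples of the median of detected genes on the same length, Zfp36l2 fell from 18.5 to 12.05 and Khsrp from 9.2 to 6.5. Ybx1 stayed at 24.1 and 24.4.

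The gap between the roquin paralogs depended on the length used. Rc3h1 had 56.6% of their 3707 reads (54.95% to 58.2%) and, by deposited length, 2.26 times the level of Rc3h2 (2.12 to 2.41). The deposited length of Rc3h2, 19624 bases, is the sum of all its merged exons, and its chosen transcript has 8799. Per transcript length Rc3h1 was 1.04 times Rc3h2, and their counting intervals overlapped. Their coding sequences were 68.3% identical, and at least 99.7% of the 50-base stretches of either transcript were its own.

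**Figure D3:**
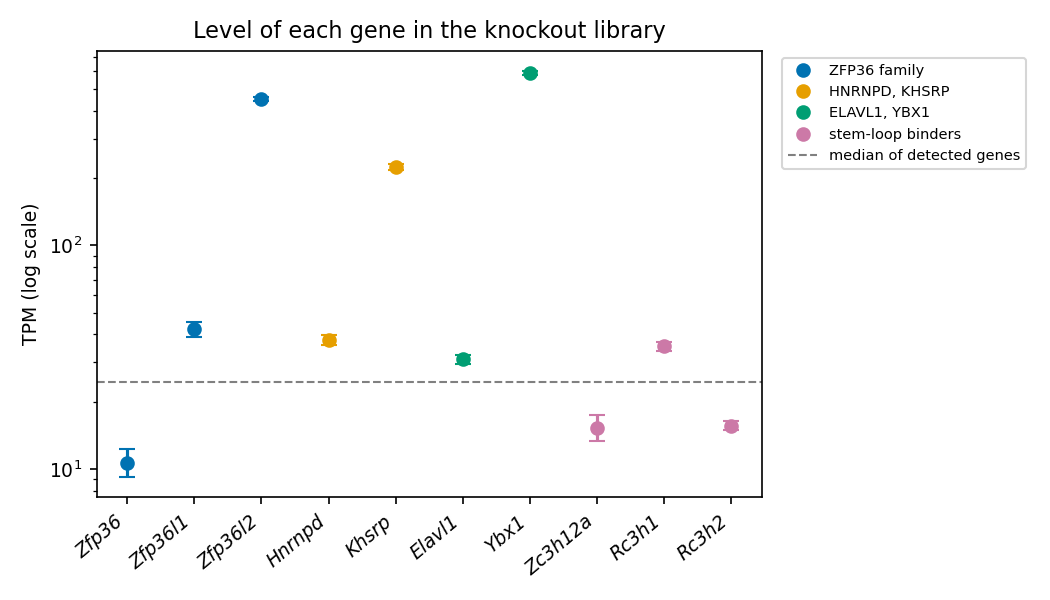
Level of each of the 10 genes in the knockout library (vertical axis, TPM on a log scale), grouped by role; bars are exact Poisson 95% intervals and the dashed line is the median of detected protein-coding genes, 24.4 TPM. Ybx1, Zfp36l2 and Khsrp stand well above the others, and Rc3h2, Zc3h12a and Zfp36 lie below the line.

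In order of TPM the 10 genes were Ybx1, Zfp36l2, Khsrp, Zfp36l1, Hnrnpd, Rc3h1, Elavl1, Rc3h2, Zc3h12a and Zfp36. The counting intervals of neighbours overlapped for Zfp36l1 and Hnrnpd, for Hnrnpd and Rc3h1, and for Rc3h2 and Zc3h12a, and not for the other 6 neighbouring pairs. A step of 5.31 times separated Khsrp, the third, from Zfp36l1, the fourth. Per transcript length the first 3 and the last 3 kept their places, and Elavl1 moved from the seventh place to the fourth. The median of detected genes itself rose 1.54 times on that length, so levels are given as multiples of it: Elavl1 went from 1.27 to 1.49 times the median. Rc3h2 went from 0.641 to 0.93, and Rc3h1 fell from 1.45 to 0.968, just under the median. Zfp36l1 fell from 1.73 to 1.13 and Hnrnpd from 1.54 to 1.08, whereas Ybx1 stayed at 24.1 and 24.4.

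**Figure D4:**
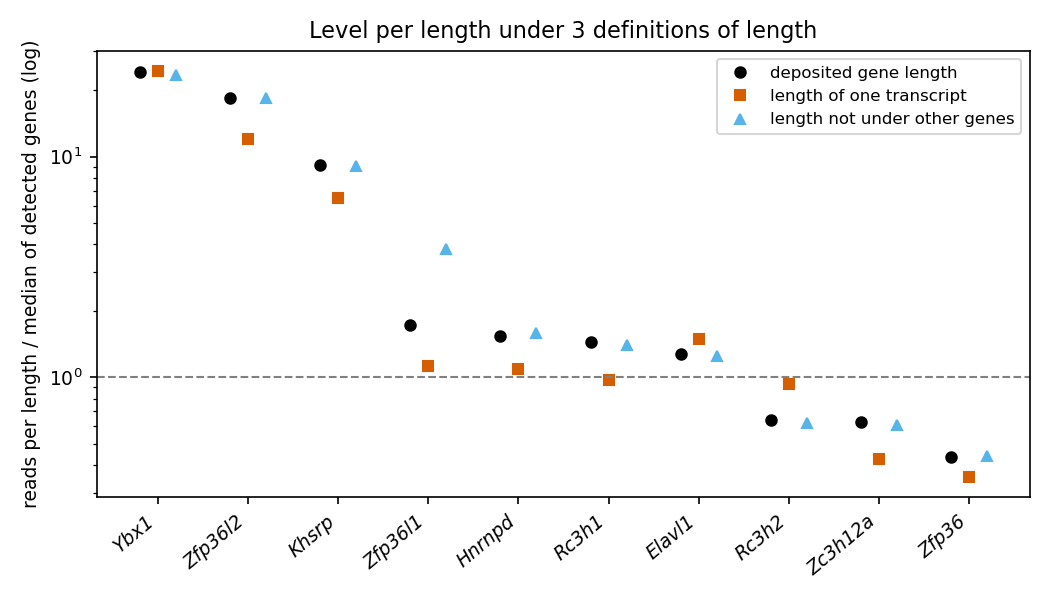
Level per length of the 10 genes as a multiple of the median of detected protein-coding genes on the same length (vertical axis, log; dashed line at 1), by deposited gene length (black circles), by the length of 1 protein-coding transcript (orange squares) and by the exon length not under another gene (blue triangles). Zfp36l1 is at 3.81 on uncovered length against 1.73 on deposited length, and Rc3h2 is at 0.93 on transcript length against 0.641.

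Paralogs and other ARE-binding proteins were detected in 18 of 23 cases, against 52.2% of all protein-coding genes. Of the 23, 13 exceeded the median TPM of detected genes, against 5748 of the 22046 protein-coding genes. The highest were Hnrnpa1, a splicing factor and shuttling hnRNP protein, at 761 TPM, Hnrnpab, a close relative of HNRNPD, at 458, and Ncl, nucleolin, at 407. Hnrnpab was thus at 12.2 times the TPM of Hnrnpd. The neuronal Hu genes Elavl2 and Elavl4 and the germ-cell gene Ybx2 had 0 reads each, for which the one-sided limit of 3 reads is 0.193 CPM and the upper end of the exact interval 0.237 CPM. Elavl3, also a neuronal Hu gene, was detected, with 17 reads (0.47 TPM). Of the other regnase genes Zc3h12c had 374 reads, Zc3h12b 14 and Zc3h12d 1.

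Of 22 listed genes for kinases, phosphatases, adaptors and proteases that act on the 10 proteins, 21 were detected, against 52.2% of all protein-coding genes. Of the 22, 17 exceeded the median, against 5748 of the 22046 protein-coding genes. The highest were the 14-3-3 genes Ywhae (644 TPM) and Ywhaz (403), whose products hold phosphorylated ZFP36 proteins inactive, and the kinase gene Akt1 (411). Map2k6, a kinase upstream of p38, had 0 reads. Of 16 genes for deadenylation, decapping and helicase partners all were detected and 12 exceeded the median, against the same shares of all protein-coding genes. Ddx6, a helicase of decapping complexes, had 93.2 TPM, Upf1, the helicase used by regnase-1, 83.8, and the deadenylase subunit gene Cnot8 83.4.

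Of 38 mRNAs reported as targets, 28 were detected, against 52.2% of all protein-coding genes. Of the 38, 17 had a TPM above the median of detected genes, against 5748 of the 22046 protein-coding genes. The median over all 38, which includes the 10 under the read minimum, was 20.05 TPM, at percentile 43.9 of detected genes. Among the 28 detected, places 14 and 15 by TPM were held by Hif1a (51.7) and Cxcl1 (39.1), both above the median of detected genes. Ccnd1, encoding cyclin D1, had 568 TPM, Myc 529 and the early-response gene Ier3 489. At the other end Il2, Il10, Il12b, Ccl2 and Icos had 0 reads. Cd274 had 82 reads, 5.27 CPM (4.19 to 6.54) and 4.32 TPM, at percentile 14.4. Each of the 10 genes had a higher TPM than Cd274, Zfp36 at 2.47 times and Zfp36l2 at 105 times. The count of Cd274 is itself less certain. Exons of a gene on the opposite strand cover 14.1% of its exon length, and 87.6% of its 50-base stretches were its own. The nonamer was present in 12 of the 28 detected targets, against 7.35% of detected genes, and in 3 of the 10 under the read minimum. The median 3' UTR was 1084 bases in the former and 520 in the latter. At the shares of genes of like length 2.1 and 0.357 of them would hold the nonamer. The list was made of reported targets of proteins that read such elements, so these counts are not independent of how it was made. Motif counts and lengths hold for the 1 transcript used per gene, with a 3' UTR of 315 bases in Vegfa and 106 in Icos. The share of any target's reads that depended on these proteins was not tested, since 1 library holds no change in their levels.

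**Figure D5:**
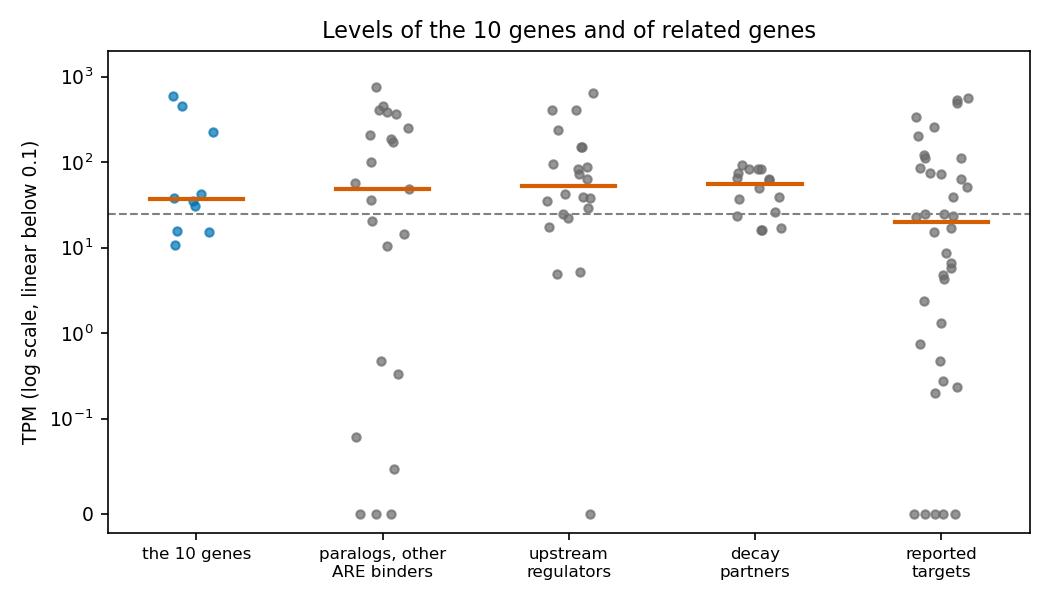
TPM of each gene (points; vertical axis, log scale, linear below 0.1) for the 10 genes and 4 lists of related genes; orange lines are list medians and the dashed line is the median of detected protein-coding genes. The medians run from 20.05 for reported targets to 56.01 for decay partners, with 36.5 for the 10 genes. List medians include genes under the read minimum, which the dashed line leaves out.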

How the data were processed

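The deposited values are raw counts of reads for each gene, listed with its position and length. The submitters' processing notes name build mm10 and the tools featureCounts 1.5.0-p3, HISAT2 2.0.5 and CASAVA. Strand setting, annotation release and treatment of multi-mapping reads: not given in the sources used here. The table holds 1 count column whose name matches no sample label, and it was not used. The positions of all 10 genes were identical in GENCODE vM21 (GRCm38), the source of transcripts, exons and 3' UTRs. These are reference sequences, and differences in BALB/c cells were not examined.

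CPM, TPM, percentiles, exact Poisson and Clopper-Pearson 95% intervals, and motif counts were computed here with Python 3.11.15, numpy 2.4.6, pandas 2.3.3, scipy 1.17.1 and Biopython 1.88 (global alignment of coding sequences). A gene was called detected at 10 reads. For a count of 0 the limit is 3 reads, or 0.193 CPM. Reads carry no molecular identifiers, so intervals and limits cover counting error only. The interval and the pentamer counter were tested on simulated data, and the percentile on known ranks. The nonamer and stem-loop searches were not tested in this way. With 1 library no test between groups was made, and no gene of like pattern could be sought. The 10 genes and the lists were chosen with earlier results of these data known. Named genes are the 10, the 3 highest of each list by TPM, list genes at 0 reads, Cd28 and Cd274; other names were chosen after their values were seen, as were the motifs and the stretches shown.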

Additional observations from a re-analysis of the deposited data

Results flagged for a closer look

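Each result here is a signal over the limit of 3 reads set by a count of 0, on a gene outside the 10 that shares sequence or exons with 1 of them. Of the processed pseudogenes that share 50-base stretches with Ybx1, Gm11560 on chromosome 11 had 70 reads, Ybx1-ps2 on chromosome 6 had 10 and CT009755.1 on chromosome 17 had 5. The other 3 had 0 reads. Among genes on the opposite strand whose exons overlap those of the 10, Ccl25, a chemokine gene beside Elavl1, had 224 reads, Gm17092, over Hnrnpd, had 29, Gm17949, over Khsrp, had 4, and Gm44710, over Zfp36, had 4. The share of these reads that came from the neighbouring gene was not tested.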

How the results depend on the processing

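No paired analysis was possible because the values come from 1 library, which also leaves no replicate to drop. Depth sets the counting error, widest in proportion for Zfp36 and Zc3h12a. All 10 genes stayed detected at 1 and at 100 reads. The number above the median was 7 by TPM, 8 without length correction, 7 among genes with at least 1 read, 6 per transcript length and 7 per uncovered exon length, with the reference genes on the same length. The share of Zfp36l2 in its family was 90.7% by reads, 89.5% per deposited length, 89.1% per transcript length and 81.3% per uncovered length. That of Rc3h1 was 56.6%, 69.3%, 51.01% and 69.3%. Transcript and uncovered lengths, except in the planned count above the median, were chosen after seeing the data. Other totals raised every CPM by one factor each: 1.04 with protein-coding reads, 1.01 without mitochondrial genes and 1.23 without the 100 highest genes. Without length correction Rc3h2 moved from percentile 36.8 to 80.1 and Elavl1 from 58.0 to 81.2, which follows from their long merged exons.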
